A study of Rattus norvegicus with 8 samples.

Results

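The genes described here encode the subunits of the proteasome, the assembly chaperones that build it and its regulators. They were taken from a count table of 34298 rat genes as the protein-coding rows whose symbol begins with Psm, a letter from a to g and a digit, leaving out the immunoproteasome subunits Psmb8, Psmb9 and Psmb10. The rule found 45 genes. Of these, 16 belong to the core particle (Psma and Psmb symbols) and 23 to the regulatory particles and activators (Psmc, Psmd and Psme). The other 6 are the inhibitor Psmf1, the chaperones Psmg1 to Psmg4, and Psmc3ip, a recombination factor that matches the name pattern and is no proteasome subunit.

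The proteasome is the barrel-shaped protease that degrades proteins tagged with ubiquitin. Its core particle is a stack of rings in which the outer alpha rings (Psma genes) form the gate and the inner beta rings (Psmb genes) hold the active sites. The regulatory particle that caps the barrel has a ring of ATPases (Psmc genes), which unfold the substrate, and non-ATPase subunits (Psmd genes), which bind ubiquitin, cut it off or hold the particle together. In neurons the proteasome takes part in the turnover of synaptic proteins.

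RNA came from the orbitofrontal cortex of adult male Sprague-Dawley rats, 8 weeks old on arrival, in 8 samples that the labels call biological replicates. Every animal was infused there with 1 µl of the transfection reagent JetPEI carrying 5 ng of siRNA, and tissue was collected 7 days later. The 4 control libraries, numbered 1, 3, 4 and 5, come from animals given a scrambled siRNA. In the 4 knockdown libraries, numbered 1 to 4 and named after the series title, the siRNA was aimed at the junction that closes circNrxn3, a circular RNA of the neurexin 3 gene. No untreated group was among the samples, and which cells took up the siRNA is not given in the labels. The libraries were built from RNA selected by its poly-A tail, which a circular RNA lacks, so the Nrxn3 gene count (7.75 ± 3.77 CPM in control libraries, against 8.86 ± 4.30 CPM with the knockdown, SD, n = 4 each) does not check the knockdown.

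Total counts ranged from 27589883 to 35221782 per library, and 16573 genes passed the filter on low counts. CPM is the read count relative to the library total, after scaling between libraries. The sum of 7 neuronal markers was 6592 to 7266 CPM over the 8 libraries, and that of 6 oligodendrocyte markers was 1944 to 4580 CPM. Summed astrocyte markers were at 2414 to 2678 CPM in control and 2120 to 2383 CPM in knockdown libraries, which did not overlap. The 6 markers differed unevenly. Control and knockdown means were 576 and 428 CPM for Gfap, 1199 and 1080 CPM for Aldoc, and 410 and 395 CPM for Slc1a3. They were 184 and 174 CPM for Aqp4, 184 and 185 CPM for Gja1, and 27.8 and 24.9 CPM for Slc1a2. Summed haemoglobin and other red blood cell markers were at 282 to 998.5 CPM in control and 164 to 315 CPM in knockdown libraries. All 4 were lower with the knockdown at an unadjusted edgeR p under 0.05, against 5.59% of all genes (adjusted p 0.833 each). For 2 of the 4 the groups did not overlap, against 3.48% of all genes. Summed microglia markers were at 237.5 to 438 CPM in control and 219 to 434 CPM in knockdown libraries. The part of these markers in the results below was not tested. In bulk tissue, fewer cells of a type and less RNA per cell cannot be told apart.

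The promoters of the 3 catalytic beta genes and of the activator gene Psme2 are shown because the comparisons below turn on these genes. Proteasome genes are known targets of Nfe2l1, a transcription factor that binds antioxidant response elements, and the interferon-induced activator and immunoproteasome genes are known targets of factors that bind interferon-stimulated response elements. Each sequence is the RefSeq promoter of build GRCr8, written 5′ to 3′ on the strand of the gene, from 250 bases before the annotated start to 50 bases after it. Capitals mark a match to TGACNNNGC, the core of the antioxidant response element, in Psmb5 (chr15:32047330-32047629, minus strand) and Psmb6 (chr10:55737638-55737937, plus strand). In Psme2 (chr15:33052702-33053001, minus strand) they mark a match to GAAANNGAAA, the core of the interferon-stimulated response element. The window of Psmb7 (chr3:42827421-42827720, minus strand) held no match to TGACNNNGC on either strand and is printed without capitals.
Psmb5: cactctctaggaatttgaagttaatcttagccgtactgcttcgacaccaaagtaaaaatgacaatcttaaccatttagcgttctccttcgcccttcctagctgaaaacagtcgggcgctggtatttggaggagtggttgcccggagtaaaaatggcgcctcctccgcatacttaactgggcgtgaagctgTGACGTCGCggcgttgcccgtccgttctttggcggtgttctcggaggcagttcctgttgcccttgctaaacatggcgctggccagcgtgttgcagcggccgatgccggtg
Psmb6: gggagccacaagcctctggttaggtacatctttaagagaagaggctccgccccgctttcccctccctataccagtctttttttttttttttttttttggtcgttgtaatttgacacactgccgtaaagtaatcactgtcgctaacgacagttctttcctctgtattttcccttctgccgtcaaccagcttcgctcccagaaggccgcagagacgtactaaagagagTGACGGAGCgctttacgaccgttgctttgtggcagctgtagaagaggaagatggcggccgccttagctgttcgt
Psmb7: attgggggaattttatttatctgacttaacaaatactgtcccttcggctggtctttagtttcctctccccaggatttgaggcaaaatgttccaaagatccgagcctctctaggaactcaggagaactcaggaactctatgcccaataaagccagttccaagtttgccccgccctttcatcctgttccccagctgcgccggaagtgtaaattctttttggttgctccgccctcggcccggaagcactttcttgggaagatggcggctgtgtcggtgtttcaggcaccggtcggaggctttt
Psme2: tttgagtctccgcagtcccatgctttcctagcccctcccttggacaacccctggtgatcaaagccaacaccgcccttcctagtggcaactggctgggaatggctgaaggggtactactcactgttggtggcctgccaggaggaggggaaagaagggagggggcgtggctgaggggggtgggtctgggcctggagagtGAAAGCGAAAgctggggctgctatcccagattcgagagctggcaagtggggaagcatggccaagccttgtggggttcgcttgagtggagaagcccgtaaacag

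The match in Psmb5, TGACGTCGC, lay 60 to 52 bases before the start, and that in Psmb6, TGACGGAGC, 24 to 16 bases before it. The match in Psme2, GAAAGCGAAA, lay 53 to 44 bases before its start. Of the 39 core and regulatory genes, 34 had a promoter in the RefSeq table, and both strands of each were searched. TGACNNNGC was present in 8 of these 34 promoters (23.5%), against 12.1% of all 33469 promoters of that length. The 8 were those of Psma3, Psmb2, Psmb5 and Psmb6 in the core and of Psmd1, Psmd3, Psmd9 and Psme4 among the regulatory genes. GAAANNGAAA was present in 4 of the 34 (Psma4, Psmb3, Psmd7 and Psme2) and in 3.92% of all promoters. The promoters of Psmb8 and Psmb10, which the rule leaves out, also held it. CCAAT, the box bound by the factor NF-Y, was present in 9 of 14 core and 7 of 20 regulatory promoters, against 37.5% of all promoters. The shares of all promoters took every entry, with no selection by gene type. The members were protein-coding and counted by gene, so the sets compared are unlike. These matches describe letters in a window, and whether they are bound or affect expression was not tested.

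Most proteasome genes were readily counted in this tissue. Levels are compared between genes in FPKM, which divides the read count by the length of the gene model. The median over the 16 core genes of the mean FPKM was 102.6, and over the 23 regulatory genes it was 71.7. In each class 13 genes were above 50 FPKM. In the core, Psmb4, a noncatalytic beta subunit, was highest at 226 ± 22.2 FPKM (SD over 8 libraries) and stood above the next gene in 8 of 8 libraries. The catalytic subunit Psmb5 (197 ± 25.6 FPKM) and the noncatalytic Psmb1 (193 ± 16.8 FPKM) could not be ordered, since Psmb5 was the higher in 4 of 8 libraries.

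Psma7, of the alpha ring, followed at 188 ± 14.7 FPKM, Psmb6 at 168 ± 20.7 FPKM and Psmb3 at 148 ± 15.0 FPKM. The catalytic subunits were thus unequal in FPKM, with Psmb7 at 93.3 ± 19.1 FPKM, level with Psmb2 at 95.8 ± 8.69 FPKM (Psmb2 higher in 5 of 8 libraries). The model of Psmb7 spans 1696 bp, against 873 bp for Psmb5 and 717 bp for Psmb6. In CPM, without division by length, Psmb7 (means 175 in control and 144 in knockdown libraries) was above Psmb6 (129 and 113). The other alpha genes ranged from 116 FPKM for Psma2 to 30.2 FPKM for Psma3, apart from Psma8, described below. The model of Psma3 spans 3559 bp, the longest of the core, and its FPKM divides by that length.

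Among the regulatory genes the ATPases Psmc5 (190 ± 14.8 FPKM), Psmc3 (157 ± 13.8 FPKM) and Psmc1 (138 ± 9.26 FPKM) led, each above the next gene in 8 of 8 libraries. Psmd4, which encodes a ubiquitin receptor of the particle, was at 121 ± 13.5 FPKM. Psmc4 and Psmd3 were both near 82 FPKM, with Psmc4 the higher in 4 of 8 libraries. Of the 6 ATPase genes, whose products form 1 ring, Psmc6 was lowest at 35.8 ± 1.96 FPKM. Psmd14, which encodes the deubiquitinase that removes the ubiquitin chain, was at 39.3 ± 2.10 FPKM. The activator genes were lower, with Psme2 at 24.97 ± 4.03 FPKM and Psme4, encoding PA200, at 5.32 ± 0.732 FPKM.

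Some genes were near the floor, and of these Psma8 and Psmb11 are known from other tissues. Psma8, the alpha subunit of the testis, had 2, 15, 9 and 1 counts across control libraries 1, 3, 4 and 5 and 4, 4, 0 and 3 counts across knockdown libraries 1 to 4, and was the only gene of the 45 that the count filter left out. The 0 allows up to 3 counts, for counting error only. Psmb11, the thymus beta subunit, was at 1.04 ± 0.401 FPKM. Psme1, the partner of Psme2 in the PA28 activator, had only 2 to 13 counts per library (0.229 ± 0.133 FPKM). Its model overlaps Emc9 on the opposite strand, and whether that overlap lowered its count was not tested. Psme3 had no row under that symbol and was not analysed here.

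**Figure D1:**
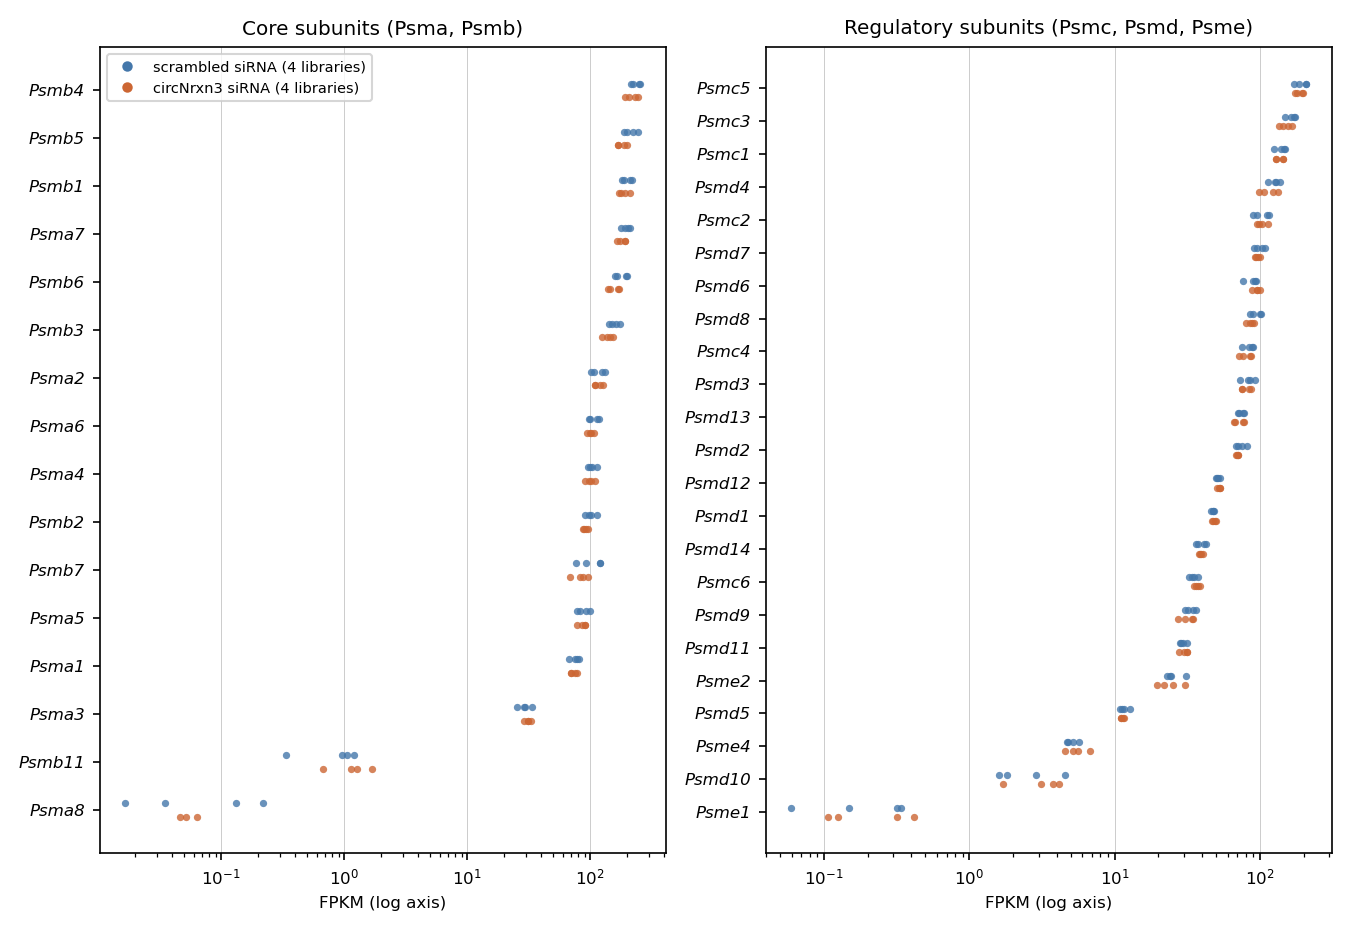
FPKM of each core (left) and regulatory (right) gene on log axes, 1 point per library, blue for the 4 control (scrambled siRNA) and orange for the 4 knockdown libraries, with a value of 0 (Psma8, knockdown library 3) not drawn. Blue and orange points overlap in every row, and the rows run from 226 FPKM for Psmb4 to under 1 FPKM for Psma8 and Psme1.

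The comparison of the siRNA groups asks how an siRNA to the circle alters mRNA of this cortex. No proteasome gene passed the test: 0 of the 44 tested genes had an adjusted p under 0.05 (quasi-likelihood test of edgeR, Benjamini-Hochberg adjusted, smallest adjusted p 0.833), and 0 of all 16573 genes did (0% called). At an unadjusted edgeR p under 0.05 there was 1 of the 44, Psmb5, or 2.27%, against 5.59% of all genes. DESeq2 called 18 genes in all and 0 of the 44. The knockdown and control values did not overlap for 0 of the 44, against 3.48% of all genes. The p-values rest on the spread among these samples alone.

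Fold changes are log2 values of knockdown over control. Their SE was worked back from the edgeR test, as the size of the log2 fold change over the square root of the F statistic. In the core, 12 of 15 tested genes had a fold change below 0, with a median of −0.08. Among the regulatory genes 13 of 23 were below 0, with a median of −0.02. Of all genes tested 48.7% were below 0, with a median of 0.0066. Among the genes with a mean of at least 5 CPM, core fold changes ran from −0.28 (−17.7%) to 0.09 (6.74%) and regulatory ones from −0.12 (−8.21%) to 0.14 (10.1%). These ranges are made of values that did not pass the test.

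The 3 catalytic subunits had the lowest fold changes of the 44, with a median of −0.23. Psmb5 encodes the chymotrypsin-like site, the target of the drug bortezomib (ENSRNOG00000013386, chromosome 15, 33259043 to 33263659, rn6). It was at 167, 212, 193 and 175 CPM across control libraries 1, 3, 4 and 5 and at 149.5, 148, 175 and 164 CPM across knockdown libraries 1 to 4. Control libraries 3 and 4 were highest, and knockdown library 3 lay inside the control range. A model on the same strand, AC109100.1, overlaps it. Its log2 fold change was −0.23 (SE 0.09, edgeR adjusted p = 0.833).

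Psmb6 encodes the caspase-like site (chromosome 10, 57131386 to 57133637). It was at 119, 139.7, 142 and 114 CPM in the control and 106, 102, 124 and 121 CPM in the knockdown libraries, in the same order. Control libraries 3 and 4 were again highest, while control libraries 1 and 5 lay below knockdown libraries 3 and 4. The log2 fold change was −0.18 (SE 0.10, edgeR adjusted p = 0.833).

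Psmb7 encodes the trypsin-like site (chromosome 3, 22871105 to 22952063). It was at 132, 205, 205 and 158 CPM in the control and 152, 118, 165 and 140.35 CPM in the knockdown libraries. Control libraries 3 and 4 stood well above the other 6 libraries, and control library 1 was below 3 of the knockdown libraries. Its log2 fold change was −0.28 (SE 0.15, edgeR adjusted p = 0.833). The highest Psmb7 value was 1.74 times the lowest, the widest range of the 14 core genes with at least 5 CPM, whose median was 1.29. Its model overlaps Nek6 on the opposite strand, and Nek6 was at 25.8 ± 4.38 CPM in control and 26.5 ± 4.19 CPM in knockdown libraries.

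The 4 noncatalytic beta genes also had fold changes below 0, with a median of −0.12. Psmb2 was at 81.7, 89.9, 101 and 86.2 CPM in control and 85.4, 77.6, 82.6 and 79.3 CPM in knockdown libraries, and the groups overlapped through control library 1. Its log2 fold change was −0.14 (SE 0.08). Psmb3 had −0.15 (SE 0.09), Psmb4 −0.10 (SE 0.09) and Psmb1 −0.08. The alpha ring lay closer to 0, with a median of −0.02 over 7 genes, 5 of them below 0. Psma7 was lowest at −0.11 (SE 0.08) and Psma3 highest at 0.09 (SE 0.09). Psmb11, at about 1 CPM, had 0.43 with an SE of 0.45.

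In the regulatory particle, the 6 ATPases had a median of −0.03 (4 of 6 below 0) and the 11 non-ATPases a median of −0.02 (6 of 11 below 0). The 4 regulatory genes with the smallest unadjusted p pointed both ways. Psmc6 was at 84.2, 81.6, 88.6 and 77.6 CPM in control and 90.1, 93.4, 87.8 and 84.8 CPM in knockdown libraries, a log2 fold change of 0.10 (SE 0.07). Psmd6, a non-ATPase subunit, was at 127, 128, 103 and 123 CPM against 122, 132, 138 and 132 CPM, a log2 fold change of 0.12 (SE 0.08), and control library 4 was the lowest library. Without it the Psmd6 value was 0.05. Both genes had higher knockdown means and overlapping groups.

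Psmd8, a non-ATPase subunit, was at 131, 154, 153 and 136 CPM in control and 131, 123, 136 and 139.7 CPM in knockdown libraries, a log2 fold change of −0.11 (SE 0.08). Psmc3 was at 244, 279, 286 and 266 CPM against 225, 237, 257 and 271 CPM, with −0.12 (SE 0.08). Control libraries 3 and 4 were the highest libraries of both genes, and the groups overlapped. The edgeR adjusted p of Psmc6, Psmd6, Psmd8 and Psmc3 was 0.834 each.

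Some regulatory genes were nearly level across animals. Psmd14 had a mean of 62.8 CPM in both groups. The highest Psmd12 value was 1.06 times the lowest over the 8 libraries, and that of Psmd1, whose model overlaps Htr2b on the opposite strand, 1.09 times. Of the 21 regulatory genes with at least 5 CPM, 9 had a highest value under 1.2 times the lowest, against 1 of 14 in the core. Psmc5, the most abundant regulatory gene per length, had a log2 fold change of −0.03 (SE 0.08).

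The chaperones build the particles and are not part of the finished enzyme. The 4 genes for core assembly, Psmg1 to Psmg4, were all below 0, with a median of −0.15. Psmg1 was at 41.6, 43.7, 47.7 and 40.1 CPM in control and 38.4, 36.5, 42.1 and 37.9 CPM in knockdown libraries, a log2 fold change of −0.16 (SE 0.08), and knockdown library 3 lay inside the control range. Psmg2 had −0.14 (SE 0.10), Psmg3 −0.16 (SE 0.11) and Psmg4 −0.13 (SE 0.13). Of the 3 chaperones of the regulatory base, Psmd5 and Psmd9 had −0.03 and −0.07, and Psmd10, at 0.850 to 2.39 CPM, had 0.24 with an SE of 0.41. The inhibitor Psmf1 had −0.06 (SE 0.08). The recombination factor Psmc3ip had −0.13 (SE 0.19), and its model overlaps Mlx on the opposite strand.

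**Figure D2:**
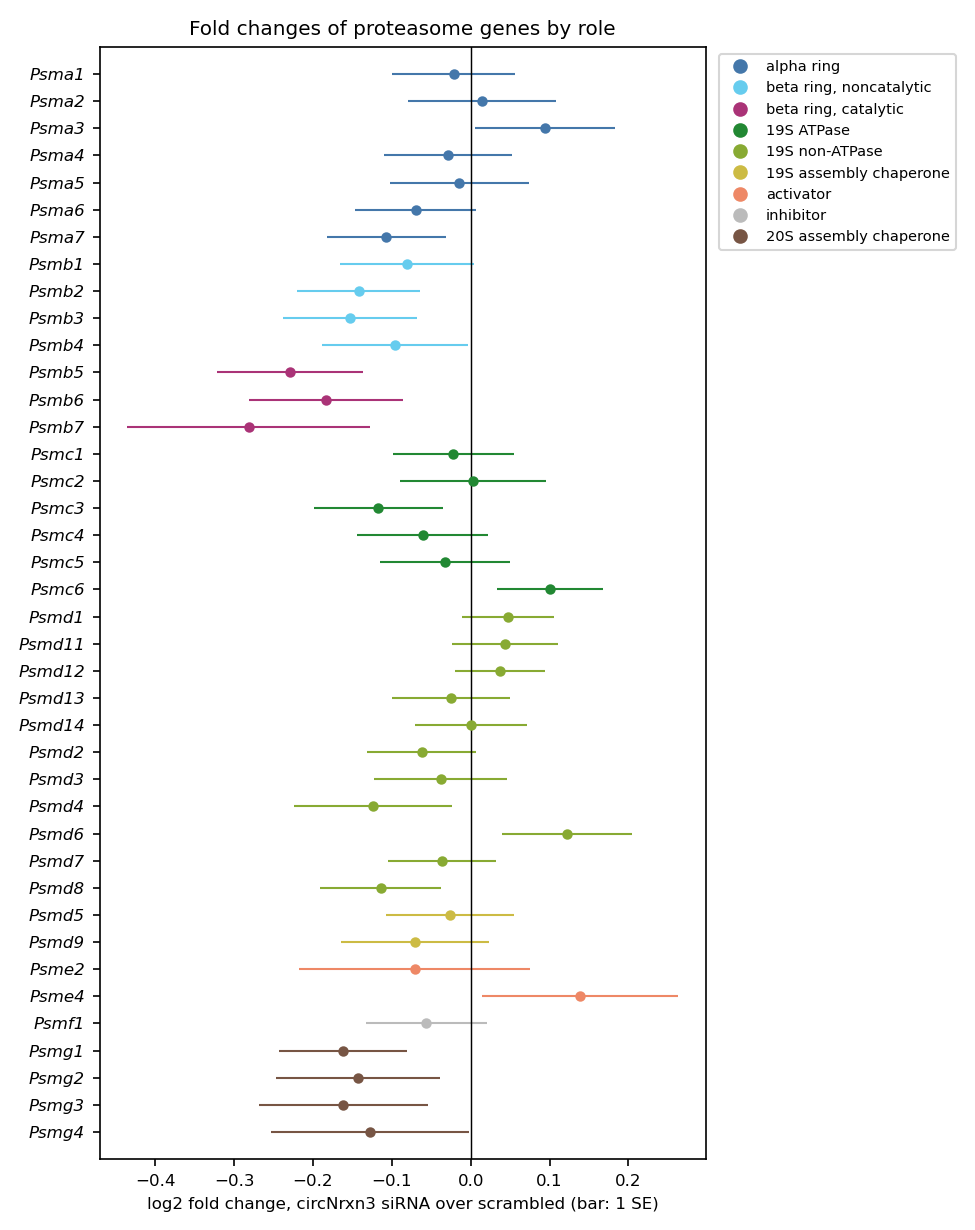
Log2 fold change of knockdown over control (scrambled siRNA) for each tested gene, grouped and coloured by role, with bars of 1 SE; Psme1, Psmb11 and Psmd10, all under 3 CPM, and the non-subunit Psmc3ip are not drawn. All 7 beta genes and all 4 Psmg genes lie left of 0, from −0.28 for Psmb7 to −0.08 for Psmb1, and the regulatory genes lie on both sides.

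Values were also summarised for each library. In each, a mean level of a gene group was taken as the average over its genes of log2 CPM minus the gene's mean over the 8 libraries. For the 14 core genes it was −0.07, 0.09, 0.19 and −0.03 across control libraries 1, 3, 4 and 5 and −0.06, −0.17, 0.07 and −0.02 across knockdown libraries 1 to 4. The groups overlapped (0.05 ± 0.12 and −0.05 ± 0.10, SD, n = 4 each). Control library 4 was highest and knockdown library 2 lowest. For the 21 regulatory genes the groups were closer, at 0.01 ± 0.05 and −0.01 ± 0.05.

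The rings of the core were also taken apart. The beta ring was at 0.08 ± 0.15 in control and −0.08 ± 0.12 in knockdown libraries, and the alpha ring at 0.01 ± 0.10 and −0.01 ± 0.08. The beta level minus the alpha level was −0.03, 0.21, 0.07 and 0.05 across control libraries 1, 3, 4 and 5 and −0.10, −0.11, −0.02 and −0.06 across knockdown libraries 1 to 4. The groups overlapped here too, through control library 1 and knockdown library 3.

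The libraries also differed in how long and short genes were counted. The mean level of all genes with models over 3486 bp minus that of genes under 1372 bp was 0.06, −0.08, −0.15 and −0.01 across control libraries 1, 3, 4 and 5 and 0.08, 0.15, −0.05 and 0.005 across knockdown libraries 1 to 4. Control library 4, lowest in this measure, was highest in the core level, and knockdown library 2, highest in it, was lowest in the core level. Models of the beta and Psmg genes span 576 to 1696 bp, and those of the tested alpha genes other than Psma3 span 874 to 1174 bp.

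**Figure D3:**
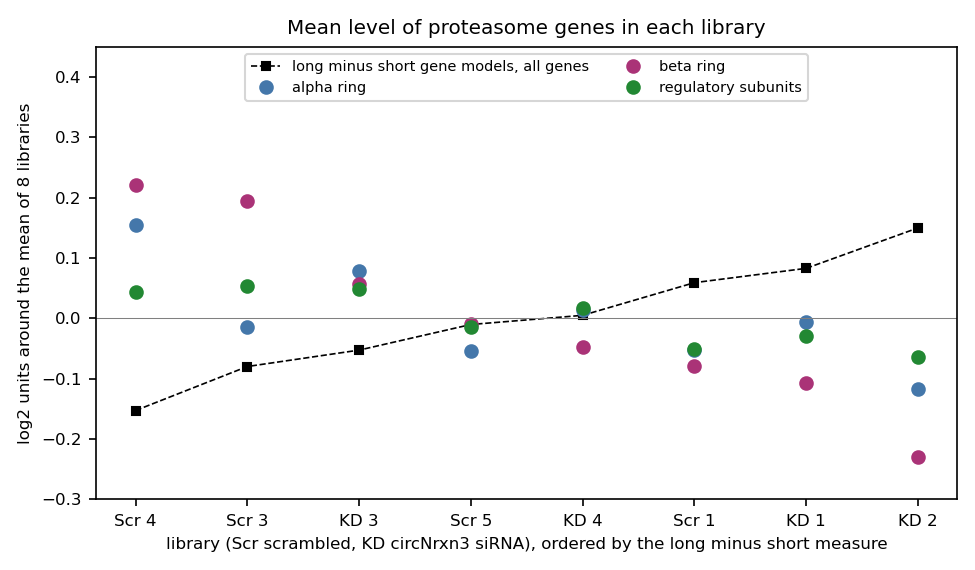
Mean log2 level of alpha ring, beta ring and regulatory genes in each of the 8 libraries (points), with the long minus short gene measure over all genes (dashed line with squares), libraries ordered by that measure. Control library 4 on the left has the highest alpha and beta levels (0.16 and 0.22) and knockdown library 2 on the right the lowest (−0.12 and −0.23).

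Across the 35 core and regulatory genes with at least 5 CPM, the fold change went with the length of the gene model (Pearson r 0.60, Spearman rho 0.54, over genes that share these 8 libraries). Over all 23 regulatory genes, the 15 with models under 1700 bp had a median of −0.03 and the 8 longer ones a median of 0.04. The 15 include Psmd10 and Psme1, which were below 5 CPM. When the length trend of each library was removed, r was 0.04 and rho 0.05. The removal takes out the trend on length over all genes, so a small r after it is largely built in. Taken apart, the 14 core genes had r 0.41 and rho 0.43 before removal and r −0.03 and rho 0.31 after it. The 21 regulatory genes had r 0.57 and rho 0.47 before and r −0.0043 and rho 0.02 after. The core median was then 0.01, with 6 of 15 genes below 0, and the regulatory median 0.01, with 7 of 23 below 0. The 76 tested genes of cytosolic ribosomal proteins had a median of −0.18 before removal (72 of 76 below 0) and −0.05 after it (54 of 76 below 0).

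The catalytic genes had values below 0 in that fit as well. With the trend removed, the 7 beta genes had a median of −0.04 (5 of 7 below 0) and the 7 alpha genes 0.06 (1 of 7 below 0). Psmb7 was at −0.24, Psmb5 at −0.12 and Psmb6 at −0.06, all 3 below 0. The Psmg median was −0.05, with 3 of 4 below 0. Without control libraries 3 and 4 and knockdown library 3, a choice made after seeing the data, the catalytic median was −0.08, against −0.23 with all 8 libraries. Control libraries 3 and 4 were the highest control libraries of all 3 catalytic genes. A smaller drop without them was thus largely fixed in advance, and nothing is concluded from it.

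**Figure D4:**
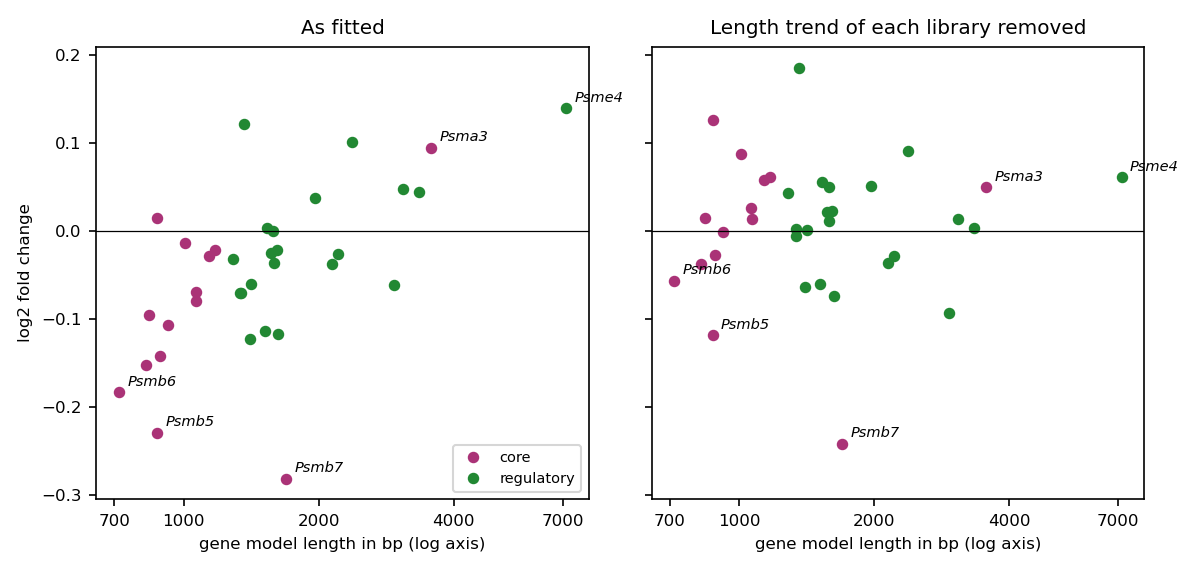
Log2 fold change against gene model length (log axis, bp) for 14 core and 21 regulatory genes, as fitted (left) and after each library's length trend was taken out (right). Psme1, Psmb11 and Psmd10 are not drawn. As fitted, longer models have higher values (r 0.60). The removal takes out such a trend by design, and r over both classes is then 0.04, with Psmb7 lowest at −0.24.

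Of the interferon-inducible genes, Psmb8 and Psmb9 varied widely within each group. Over the 8 libraries their highest values were 4.20 and 4.27 times the lowest, against 1.57 times for Psmb10 and for Psme2. Psmb8, Psmb9 and Psmb10 replace Psmb5, Psmb6 and Psmb7 in the immunoproteasome, and Psme2 encodes a subunit of the PA28 activator. Psmb9 was at 6.01, 4.29, 13.9 and 7.00 CPM across control libraries 1, 3, 4 and 5 and at 12.1, 3.26, 6.33 and 3.53 CPM across knockdown libraries 1 to 4. Psmb8 was at 6.76, 3.40, 7.93 and 5.81 CPM against 10.3, 4.24, 3.89 and 2.46 CPM. Control library 4 and knockdown library 1 were the highest 2 libraries for both genes.

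Psme2, at 32.8, 30.8, 41.8 and 32.7 CPM against 41.6, 26.6, 33.9 and 29.3 CPM, had the same 2 libraries highest. Psmb10 was at 31.1, 35.6, 39.1 and 35.8 CPM against 34.4, 24.9, 35.6 and 26.2 CPM. The log2 fold changes were −0.31 (SE 0.49) for Psmb9, −0.19 (SE 0.43) for Psmb8, −0.22 (SE 0.13) for Psmb10 and −0.07 (SE 0.15) for Psme2. Psme1 had 0.20 with an SE of 0.70, and Psme4 had 0.14 (SE 0.12), which was 0.02 without knockdown library 1.

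Psme4 was at 41.3, 33.8, 33.7 and 36.9 CPM in control and 49.4, 37.6, 40.3 and 32.9 CPM in knockdown libraries, with knockdown library 1 highest and knockdown library 4 lowest. Each immunoproteasome gene was set against the subunit it replaces as a ratio of FPKM. Psmb8 was at 1.38 ± 0.492% of Psmb5 in control and 1.43 ± 1.02% in knockdown libraries, and Psmb9 at 2.84 ± 1.33% and 2.67 ± 1.87% of Psmb6. Psmb10 was far closer to its partner, at 35.2 ± 5.00% and 35.8 ± 2.85% of Psmb7. That ratio depends on the model lengths, 996 bp for Psmb10 and 1696 bp for Psmb7. Exact permutation tests of the log2 ratios, 2-sided, gave p of 0.857, 0.8 and 0.83, each 0.857 after adjustment over the 3 ratios, where 4 against 4 libraries allow no p below 0.0286.

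**Figure D5:**
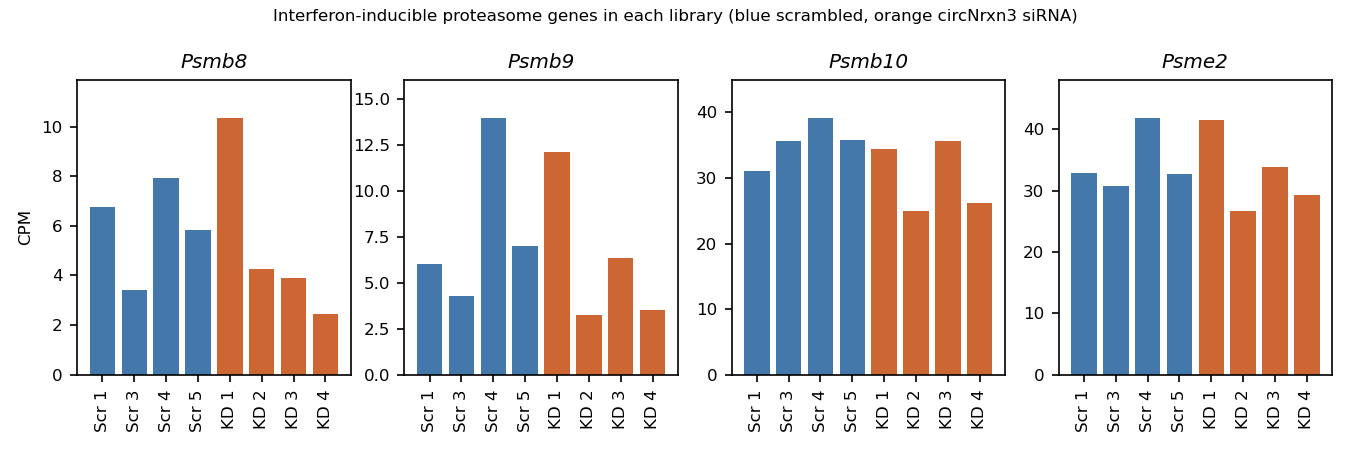
CPM of Psmb8, Psmb9, Psmb10 and Psme2 in each library (bars from 0, blue control, orange knockdown). Control library 4 and knockdown library 1 carry the 2 highest bars for Psmb8, Psmb9 and Psme2, with Psmb9 at 13.9 and 12.1 CPM there.

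Other genes of the ubiquitin and proteasome pathway gave 0 calls in any list. Of 14 tested ubiquitin receptors and editing enzymes of the proteasome, 11 were above 0, with a median of 0.10. With the length trend removed 11 were above 0, with a median of 0.06. In that list 3 of 14 genes had an unadjusted edgeR p under 0.05, against 5.59% of all genes, and 3 had groups that did not overlap, against 3.48%. An unadjusted p under 0.05 was also found for 2 of 15 genes of the p97 list, 3 of 27 conjugating enzymes and 2 of 11 genes of transcriptional control, and groups without overlap for 1, 1 and 2 of them. The receptor list and that of transcriptional control share Ddi2, which is counted in both. Ddi2, a protease that processes Nfe2l1, was at 57.8, 53.0, 54.7 and 59.2 CPM in control and 68.6, 90.6, 63.4 and 60.5 CPM in knockdown libraries. Every knockdown value was above every control one, with knockdown library 2 far highest, and the log2 fold change was 0.33 (SE 0.12, edgeR adjusted p = 0.833). Without that library it was 0.19. The Ddi2 model spans 9524 bp, and with the length trend removed its value was 0.24.

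Zfand5, a protein that binds and activates the proteasome, was at 151 ± 13.7 CPM in control and 174 ± 6.86 CPM in knockdown libraries, without overlap (log2 fold change 0.21, SE 0.08). Usp14, a deubiquitinase that docks on the regulatory particle, also had no overlap, at 136 ± 9.74 and 150.1 ± 4.34 CPM (log2 fold change 0.15, SE 0.07), and was singled out after its values were seen. The edgeR adjusted p of both was 0.833.

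Among 11 genes that control proteasome transcription, 6 were above 0 and 5 below, with a median of 0.10. Ngly1, which removes sugars from Nfe2l1, was at 28.9, 26.9, 28.3 and 26.1 CPM in control and 31.9, 29.8, 32.1 and 31.4 CPM in knockdown libraries, without overlap. Its log2 fold change was 0.18 (SE 0.07, edgeR adjusted p = 0.833). Nfe2l1 itself, also named after its values were seen, was at 64.6 ± 7.98 and 70.7 ± 13.3 CPM (log2 fold change 0.13, SE 0.14).

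Of 15 genes for the p97 ATPase, which extracts ubiquitinated proteins, and its cofactors, 11 were above 0, with a median of 0.05. The ubiquitin ligase Ube4b was at 65.1 ± 2.96 CPM in control and 75.5 ± 3.11 CPM in knockdown libraries, without overlap (log2 fold change 0.21, SE 0.07), and Ubxn4 had 0.17 (SE 0.07). With the length trend removed 7 of the 15 were above 0. The 27 tested conjugating enzymes were split, 15 above and 12 below 0, with Ube2m at −0.23 (SE 0.08) and Ube2s at −0.21 (SE 0.08). The activating enzyme gene Uba6 had 0.11 (SE 0.15). Of 5 subunits and assembly factors that the rule does not match, Adrm1, a ubiquitin receptor of the regulatory particle, had −0.20 (SE 0.10), and Pomp, a chaperone of the core, had 0.94 (SE 0.53). Without knockdown library 2 the Pomp value was 0.048.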

How the data were processed

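Read counts per gene, whole numbers with no normalization, and FPKM values were deposited by the authors for the same 34298 genes. The build was rn6, and the tools listed were featureCounts 1.5.0-p3, StringTie 1.3.3b, HISAT2 2.0.5 and fastp, per the submitters' processing notes. The strand setting of the counting step was not given in the sources used, and reads of genes overlapping on opposite strands may be mixed. Groups came from the treatment labels, with 4 libraries each. Libraries of a group were compared pairwise for duplicates, and every pair differed by more than sampling noise (chi-square over degrees of freedom 23.2 to 47.4).

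Counts were fitted over all genes with edgeR 4.0.16 in R 4.3.3, with filterByExpr at a minimum count of 10, TMM scaling, the quasi-likelihood test without covariates, and 2-sided p-values adjusted by Benjamini-Hochberg at 0.05. Alternatives were RLE and upper-quartile scaling, other filters, DESeq2 1.42.0, limma-voom and limma on log2 FPKM (limma 3.58.1), removal of each library's trend on gene length, a replicate block and leaving out libraries.

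The members and lists were chosen with earlier results of these data known. Named with values were the catalytic subunits, the 4 core and 4 regulatory genes with the smallest unadjusted p, the highest and lowest of each class by FPKM, the activators, inhibitor and Psmg genes, genes the filter left out, and 2 genes of each further list with the smallest unadjusted p. Of 134 list entries 125 matched by symbol, 2 by a synonym, and 7 had no matching row. Of the genes this rule names, 1 is not reported here.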

Additional observations from a re-analysis of the deposited data

Results flagged for a closer look

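Over 58 genes and both groups, 116 groups of 4 values were examined for a library far from the other 3. Chance marks about 1 in 20 groups, and 1 group (0.862%) was marked here. Pomp, the core assembly chaperone, was at 6.985 CPM in knockdown library 2, against 1.10 to 1.87 CPM in the other 7 libraries.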

How the results depend on the processing

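No proteasome gene was called under any of the 20 alternatives run, and the smallest adjusted p of a proteasome gene was 0.197, in the replicate block. Over all genes, DESeq2 called 18 (the cause was not tested), leaving out 1 library at a time called 0 to 1 (1 without knockdown library 2 and 1 without knockdown library 3), and the fit without control libraries 3 and 4 and knockdown library 3, added after seeing the data, called 3. The median of the core genes was −0.14 to −0.04 and that of the regulatory genes −0.06 to 0.003 when 1 library was left out. Numbers 1, 3 and 4 occur in both groups, and the labels do not say whether same-numbered libraries are paired. Deviations of same-numbered libraries correlated at 0.369, 0.299 and 0.0866, against −0.437 to 0.282 for libraries of different number. The values for numbers 1 and 3 were above that range, while control library 4 correlated best with knockdown library 3 (0.218). These correlations cannot settle whether the libraries were paired. In the replicate block on these 6 libraries the beta median was −0.13 and the catalytic median −0.22. Of 753 values of 38 named genes, 735 kept their direction and 18 reversed, and 27 genes never reversed. Many of these genes were named for a small unadjusted p in these data, so the count does not speak for the other members. With the length trend removed, 6 core genes were below 0, against 12 in the main fit, and 7 regulatory genes, against 13. Among the named genes, Psmb4 then turned to 0.014, Psmc5 to 0.043, Psme2 to 0.0015, Psmf1 to 0.0092 and Psmg4 to 0.0055. With the block, Psmb11 turned to −0.092 and Psmg4 to 0.0040, and on the same 6 libraries without it to −0.051 and 0.0023. Without the 3 libraries, Psmc5 turned to 0.051, Psme1 to −0.18, Psmg2 to 0.023 and Uba6 to −0.013. Leaving out 1 library gave −0.76 to 0.046 for Psmb8, −0.84 to 0.13 for Psmb9, −0.18 to 0.49 for Psme1 and −0.20 to 0.029 for Psme2. The cause of these reversals was not tested. Values of Psme1, Psmb11, Psmd10 and Psma8 are limited by their few reads per library.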
